A study of Spodoptera exigua with 2 samples.

Results

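Hemocytes, the circulating blood cells of insects, were examined for the transcripts that nearly every cell carried. A transcript was counted as ubiquitous when at least 1 unique molecular identifier (UMI, a tag that marks 1 captured mRNA molecule) was found in at least 90% of the cells in each of 2 single-cell RNA libraries, among cells with at least 200 genes. The rule selected 70 of the 13002 genes, or 0.538%. Both libraries came from hemocytes of fifth-instar larvae of Spodoptera exigua, the beet armyworm, 8 h after an injection. The naïve larvae had received phosphate-buffered saline (PBS), and the challenged larvae had each received 140000 heat-killed Escherichia coli TOP10 cells. Each condition is 1 library made from the pooled hemolymph of several larvae, so no test between them was possible. The 95% intervals below are exact binomial (Clopper-Pearson) intervals for shares, exact Poisson intervals for levels and exact conditional intervals for ratios, and all of them cover counting error only. The genes were chosen by the share of cells in which they were found, so their detection and level are given as a description.

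Transcripts that are found in almost every cell usually serve functions that no living cell can do without, and in animal cells the most abundant of them encode the parts of the ribosome. A ribosome joins a small (40S) subunit, which reads the mRNA, to a large (60S) subunit, which forms the peptide bond, and elongation factors supply it with loaded tRNAs. Genes of ribosomal proteins tend to be expressed in fixed proportion to each other. Their summed part of a cell's mRNA is therefore often taken as a measure of its investment in protein synthesis.

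Names were paired with 9 of the 70 genes, and 61 carry only a number. The names come from the study's lists of highly expressed genes, which were chosen on these same libraries. High levels and wide detection of the named genes thus follow in part from that choice. The list of 7 named translation genes was found whole among the ubiquitous transcripts. It holds 40S ribosomal protein S23 (SPEXI_LOCUS8825), which lies near the decoding centre of the small subunit, and 5 proteins of the large subunit. Of these, P0 (SPEXI_LOCUS8264) is the base and P1 (SPEXI_LOCUS8313) an arm of the stalk that recruits translation factors, L10 (SPEXI_LOCUS11358) is needed for the final maturation of the large subunit, and L18 (SPEXI_LOCUS3864) and L23 (SPEXI_LOCUS7596) are further structural proteins. The last of the list is an elongation factor 1 alpha-like gene (EF1α-like, SPEXI_LOCUS5256), whose namesake delivers aminoacyl-tRNA to the ribosome. The other two names were heat shock 70 kDa cognate 4 (Hsc70-4, SPEXI_LOCUS11970), a chaperone made without stress, and sodium/calcium exchanger regulatory protein 1 (SPEXI_LOCUS6327), known from squid nerve as a small lipid-binding protein.

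The naïve library held 14840 cells with a median of 3347 UMIs and the challenged library 12524 cells with a median of 5282 UMIs, so the challenged cells were deeper. The libraries shared 44 cell barcodes. Cells were put in a class when the marker transcripts of that class took at least 2% of their UMIs. The markers were PPO1 and PPO2 (prophenoloxidases, the precursors of the melanin-forming enzyme) and SPARC (a collagen-binding matrix protein). Procathepsin H and cysteine proteinase 1-like (cysteine proteases) were the markers of the cathepsin-high class. The PPO-high class held 710 naïve and 841 challenged cells, the cathepsin-high class 3117 and 3524, the SPARC-high class 1973 and 860, and 9040 and 7299 cells remained as other. Hemocytin, a lectin known from silkworm hemocytes that was not used for the classes, reached 12822 CPM (UMIs scaled to a total of 1000000) in naïve SPARC-high cells against 1143 to 2163 CPM in the other classes. The SPARC limit fell within a continuum, since 1923 naïve cells had 1 to 2% SPARC and 1869 had 2 to 4%, while cathepsin-high cells had a median marker share of 22.4%. The classes also differed in depth. Cathepsin-high cells had medians of 1725 and 2076 UMIs, and PPO-high cells 9496 and 12000. Transcripts outside their own class were frequent: a PPO1 UMI was found in 87.6% of naïve other cells at a median of 3941.5 UMIs, and procathepsin H in 58.6% of naïve PPO-high cells. After each cell was thinned at random to 1000 UMIs these shares were 39.9% and 12.8%. SPARC stayed frequent at this depth, in 97.1% of naïve and 97.0% of challenged PPO-high cells. Its level in these cells was 10179 and 8470 CPM at full depth. After thinning it was found in 55.0% and 63.3% of other cells and in 26.2% and 23.1% of cathepsin-high cells. Whether the UMIs outside their own class came from free RNA, doublets or expression in these cells was not tested.

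At the limit of the rule, the exchanger regulatory protein was found in 90.2% of naïve and 95.2% of challenged cells and SPEXI_LOCUS2036 in 90.03% and 92.5%. Just outside it, SPEXI_LOCUS9930 reached 89.9% and 92.3%, and SPEXI_LOCUS9956 reached 89.9% and 93.2%. The border thus cut through closely spaced values. S23 was the most widely found gene, in 99.2% of naïve and 99.4% of challenged cells. The median over the 70 genes was 94.6% in the naïve library and 96.6% in the challenged one. If molecules had been spread over the cells in proportion to depth alone, the medians would have been 99.5% and 99.7%, and all 70 genes lay below their own expected value in both libraries. At 1000 UMIs per cell the medians were 94.8% in 12157 naïve cells and 93.3% in 11458 challenged cells, after 2683 and 1066 shallower cells had been left out. The higher detection in the challenged library at full depth was not seen at equal depth. At this depth 54 of the 70 genes stayed at 90% or more in both libraries, while the exchanger regulatory protein was at 72.7% and 81.7%.

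A high level alone did not place a gene in the group. At least as abundant as its least abundant member (1856 CPM naïve, 2094 CPM challenged) were 29 further genes, which missed the limit. Among them, hemicentin 1-like, a matrix protein, was at 2022 CPM in the naïve library but was found in 31.4% of the cells, and procathepsin H was at 10031 CPM and found in 70.1%. Cecropin B, an antimicrobial peptide, was found in 57.8% of naïve and 94.8% of challenged cells and so failed the rule through the naïve library only. The spread between cells differed in the median, with overlap. At a given level a gene missed in more cells tends to have more uneven counts, so the rule itself bears on this difference. The Fano factor, the variance over the mean of the thinned counts, is 1 for counts that differ by sampling only. Its median over the 70 genes was 2.01 in the naïve library and 1.90 in the challenged one, against 5.95 and 5.27 over the 29 abundant genes outside, of which 10 in each library were at or below the median of the 70. The ubiquitous genes ranged from 1.35 to 54.1 and from 1.249 to 44.98. The highest value in both libraries was that of the exchanger regulatory protein, followed by P1 with 4.75 and 4.61. At the same relative spread the factor is larger for a more abundant gene, so this order depends in part on level.

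**Figure D1:**
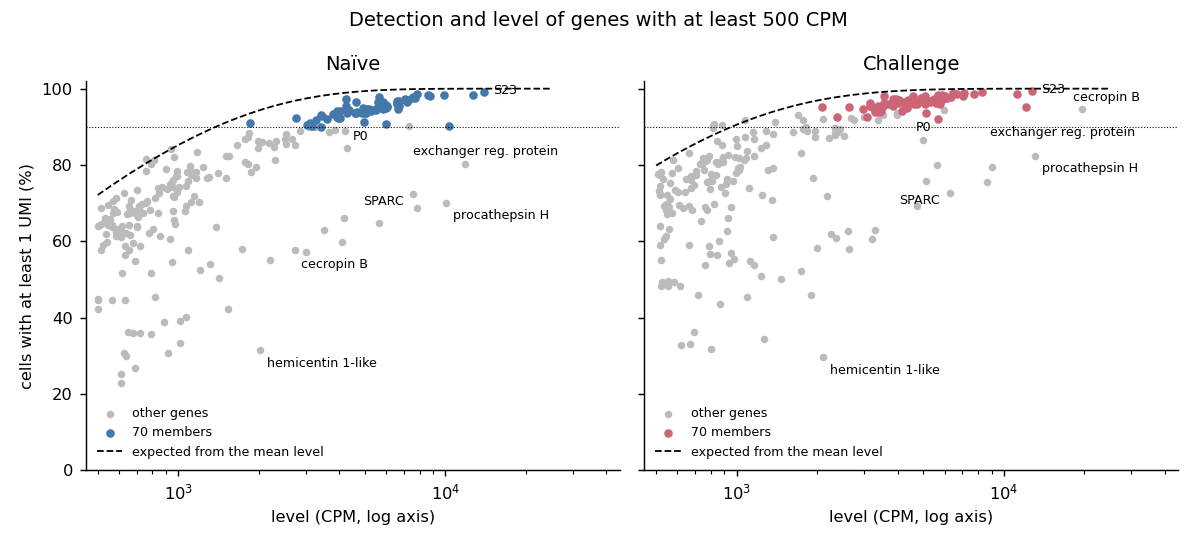
Share of cells with at least 1 UMI against the level in CPM (log axis) for genes with at least 500 CPM, naïve on the left and challenge on the right. Coloured points are the 70 ubiquitous transcripts, grey points the other genes, the dashed line the share expected from the mean level and the cells' depths, and the dotted line the limit of 90%. All 70 points lie under the dashed line, and S23 is the nearest to 100% in both panels.

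Most cells carried the complete group. All 70 transcripts were found in 8265 naïve cells (55.7%) and in 8125 challenged cells (64.9%), whose median depths were 6481 and 8187 UMIs. Fewer than 35 of the 70 were found in 58 naïve cells (0.391%) and 111 challenged cells (0.886%), with median depths of 647 and 678 UMIs. The cells that lacked many of the transcripts were thus among the shallowest.

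The named translation genes were among the most abundant transcripts of the hemocytes, which follows in part from how the names were chosen. S23 had rank 1 of all genes in the naïve library with 13894 CPM (interval 13869 to 13920) and a median of 38 UMIs per cell. In the challenged library it had rank 3 with 12713 CPM (interval 12690 to 12736) and 53 UMIs per cell. P1 had 12678 CPM, rank 2, in the naïve library and 11168 CPM, rank 5, in the challenged one. L18, L23, EF1α-like and L10 lay between 9852 and 7083 CPM in the naïve and between 8318 and 5868 CPM in the challenged library. P0 had 4936 and 5128 CPM, and Hsc70-4 had 4260 and 3563 CPM. The transcripts of P0 and P1 were thus at unequal levels, and the amounts of the stalk proteins were not measured. The 3′ libraries count a molecule once whatever the length of its transcript, so these levels were not divided by length. The exchanger regulatory protein had rank 4 in both libraries with 10309 and 12064 CPM, but its median cell held 6 and 31 UMIs, far fewer than S23 at a similar level.

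The 70 transcripts held a large part of all UMIs, and a smaller one in the challenged library. They took 39.5% of the naïve UMIs and 35.3% of the challenged UMIs, a ratio of 0.895 (interval 0.8946 to 0.8955). The median naïve cell gave them 32.7% of its UMIs and the median challenged cell 29.5%, with a range from the 5th to the 95th percentile of 12.3 to 53.7% and of 14.4 to 48.1%. The summed share exceeds the share of the median cell because deep cells, which count for more in the sum, gave more of their UMIs to the group. In UMIs per cell the order was the other way round, with means of 2162 in naïve and 2667 in challenged cells. A change in mRNA content per cell and a change in capture depth cannot be told apart here.

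The part held by the ubiquitous transcripts was largest in PPO-high cells and smallest in cathepsin-high cells of both libraries. In the naïve library it was 45.1% in PPO-high, 40.9% in other, 35.2% in SPARC-high and 29.0% in cathepsin-high cells. In the challenged library the same order held, with 39.8%, 36.4%, 30.4% and 26.3%. The class markers share the total with them and took 21.0% of the naïve and 21.4% of the challenged UMIs of cathepsin-high cells, and 9.85% and 10.2% in PPO-high cells. With the markers left out of the total, PPO-high cells stood at 50.1% and 44.3%, other cells at 41.1% and 36.7%, SPARC-high cells at 36.2% and 31.3%, and cathepsin-high cells at 36.7% and 33.5%. Cathepsin-high cells were then level with or above SPARC-high cells, but this order rested on 1 gene. Without the exchanger regulatory protein in the group, cathepsin-high cells were at 29.5% and 26.8% and SPARC-high cells at 36.0% and 31.0% of the same totals. PPO-high cells were the highest in each of these measures. The quartiles over cells were wide in other cells, from 21.3 to 43.5% in the naïve library, and narrow in PPO-high cells, from 39.7 to 49.0%.

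**Figure D2:**
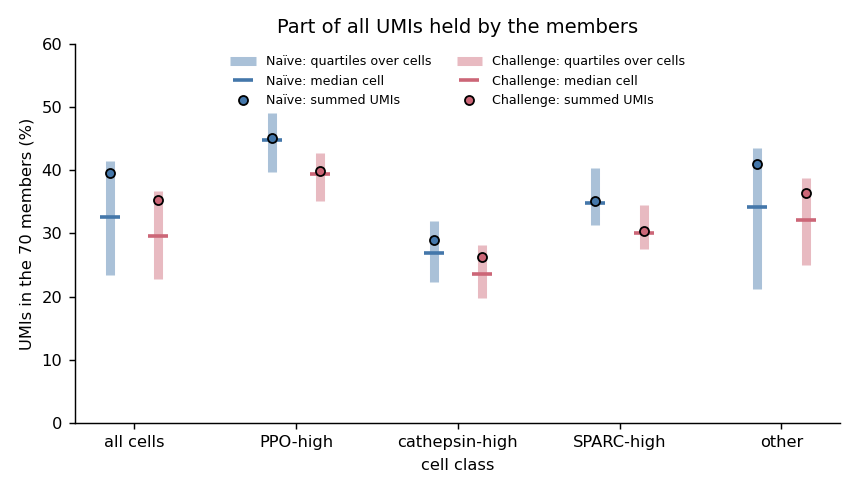
Percent of UMIs in the 70 ubiquitous transcripts, for all cells and for each class, naïve in blue and challenge in red. Bars span the quartiles over cells, dashes are the median cell and circles the share of the summed UMIs, which is 45.1% and 39.8% in PPO-high cells and 29.0% and 26.3% in cathepsin-high cells.

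Deeper cells gave a larger part of their UMIs to the ubiquitous transcripts. In the naïve library the share was 22.6% in cells with 500 to below 1000 UMIs, 37.2% in cells with 4000 to below 8000 and 45.8% in cells with 16000 or more. The challenged library had 23.3%, 31.9% and 42.3% in the same bins. A share does not depend on depth by sampling alone, so shallow and deep barcodes differed in composition. The course was not the same in every class. Other cells went from 21.0 to 46.0% in the naïve and from 23.1 to 42.8% in the challenged library, and they fell short of a steady rise only in the middle bins. PPO-high cells stayed nearly level, with 46.8%, 45.5% and 44.7% in the 3 deepest naïve bins and 39.2%, 39.8% and 40.4% in the challenged ones. SPARC-high cells went down, from 41.6% at 2000 to below 4000 UMIs to 33.5% at 8000 to below 16000 in the naïve library and from 38.6 to 29.2% in the challenged one, although the 79 naïve cells of this class with 1000 to below 2000 UMIs had 23.7%. Cathepsin-high cells had their lowest shares, 25.9% and 23.1%, at 2000 to below 4000 UMIs, the bin in which the markers took most of their UMIs (27.9% and 29.5%).

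At matched depth the classes still differed. Between 4000 and 8000 UMIs the naïve shares were 46.8% in PPO-high, 37.8% in other, 35.1% in SPARC-high and 33.5% in cathepsin-high cells. The challenged shares in this bin were 39.2%, 31.9%, 31.9% and 28.0%. Between 8000 and 16000 UMIs the lowest share was that of SPARC-high cells in both libraries, 33.5% naïve and 29.2% challenged, against 37.7% and 30.2% in cathepsin-high cells. PPO-high cells were the highest in both bins, but with 16000 UMIs or more they were below other cells, with 44.7% against 46.0% naïve and 40.4% against 42.8% challenged. The order of the classes thus depended on depth.

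**Figure D3:**
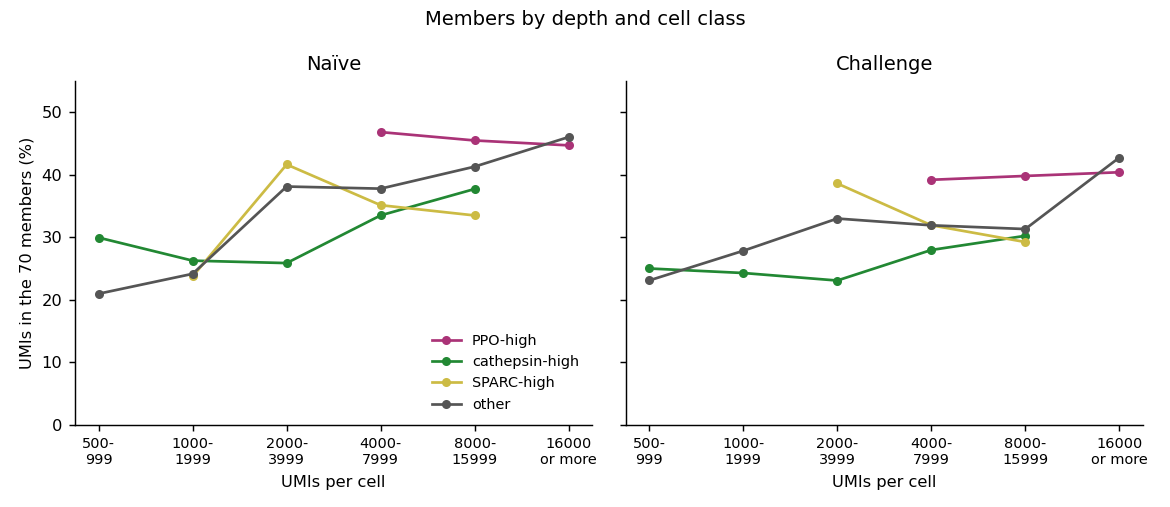
Percent of UMIs in the 70 ubiquitous transcripts by bins of UMIs per cell (bins double in width), 1 line per class, for class and depth groups with at least 50 cells. Other cells go from 21.0 to 46.0% (naïve) and from 23.1 to 42.8% (challenge), PPO-high cells stay nearly level, and SPARC-high cells go down from the bin of 2000 to below 4000 UMIs on.

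Among other cells, 68 of the 70 transcripts were at a higher level in the deepest than in the shallowest bin of both libraries (43.9% of the 1349 genes with at least 100 CPM in either library were). The median fold was 2.22 in the naïve library and 1.85 in the challenged one, against 1.06 and 0.985 over the 1349 genes. The largest folds were those of the exchanger regulatory protein, 4.52 naïve and 3.41 challenged, and of SPEXI_LOCUS422, 3.60 and 3.69. P1 went from 5276 to 16479 CPM in the naïve library, a fold of 3.12 (interval 3.05 to 3.19), and S23 from 6602 to 18403 CPM, a fold of 2.79. P0 had a fold of 2.70. Hsc70-4 was the exception in both libraries, with 4940 CPM in shallow and 3769 CPM in deep naïve cells (fold 0.763, interval 0.745 to 0.782) and 4378 against 3605 CPM in the challenged library (fold 0.823). A gene without a name, SPEXI_LOCUS595, also missed the count, with a fold of 1.18 in the naïve library and 0.982 in the challenged one. The chaperone and the translation genes thus had opposite courses with depth in the same cells.

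Levels of single ubiquitous transcripts differed between classes, and most of these differences were shared by the whole group. The highest class was at least 2-fold above the lowest in both libraries for 36 of the 70, against 62.0% of the 1349 genes. The median fold between the highest and the lowest class was 2.08 in the naïve library and 2.03 in the challenged one, and 2.63 and 2.44 over the 1349 genes. PPO-high cells had the highest level for 50 of the 70 in the naïve library and 51 in the challenged one, and cathepsin-high cells the lowest for 65 and 63. The highest class was the same in both libraries for 68 (background 84.4%), and so was the lowest class for 68 (background 83.0%). With the markers, cecropins and PGRP-LB, a peptidoglycan recognition protein, left out of the totals, 12 reached 2-fold. No background share is given for these totals. When each gene was expressed as a part of the group itself, 4 remained 2-fold apart in both libraries: the exchanger regulatory protein, P0, SPEXI_LOCUS1618 and SPEXI_LOCUS422. The median fold within the group was 1.41 and 1.39. The exchanger regulatory protein itself fills a large part of the group in cathepsin-high cells. With it left out, the median fold of the other 69 genes was 1.27 and 1.23, and 3 unnamed genes were 2-fold apart in both libraries. SPEXI_LOCUS1618 was one of them with 3.42 and 2.85, while P0 had 1.81 and 1.75 and SPEXI_LOCUS422 had 1.86 and 1.91.

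The exchanger regulatory protein varied most. Its naïve level was 57333 CPM (interval 57153 to 57513) in cathepsin-high cells, 7517 CPM in other, 1910 CPM in SPARC-high and 723 CPM (interval 703 to 743) in PPO-high cells, a fold of 79.3 between the extremes. The challenged levels were 53100, 8862, 2758 and 1047 CPM in the same order, a fold of 50.7. In cathepsin-high cells it alone made up 19.8% of the group's naïve UMIs and 20.2% of the challenged UMIs. These cells held 46.6% of its naïve UMIs with 8.38% of all UMIs. It was found in 99.7% of naïve cathepsin-high cells, with a median of 121 UMIs, and in 76.5% of naïve PPO-high cells, with a median of 1 UMI. At 1000 UMIs per cell the share of PPO-high cells with it was 24.6% in the naïve library and 31.1% in the challenged one, beside 12.8% and 19.0% for procathepsin H in the same cells. Other cells were at 71.3% and 79.8%, beside 25.7% and 25.6% for procathepsin H. Relative to procathepsin H, a transcript of the same class, it stood at 0.493 in naïve cathepsin-high cells, 1.61 in PPO-high, 8.73 in SPARC-high and 22.8 in other cells. In the challenged library the ratios were 0.427, 1.28, 11.4 and 25.1. Procathepsin H defines the cathepsin-high class, so a low ratio there follows in part from the class rule. The same rule keeps procathepsin H low in the other classes. The high ratios there, and the lower detection of procathepsin H beside this gene, thus also follow in part from it.

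In CPM, P0 was the translation gene with the largest difference between classes. In the naïve library it had 5537 CPM in other, 5217 CPM in PPO-high, 3706 CPM in SPARC-high and 1770 CPM in cathepsin-high cells, a fold of 3.13, and in the challenged library the fold was 2.96. P1, its partner in the stalk, differed by 2.89 and 2.71-fold, and S23 by 2.30 and 2.35-fold. L23 differed by 2.17 and 2.15-fold, L10 by 1.88 and 1.83-fold and L18 by 1.90 and 1.78-fold. The stalk genes thus spread more between the classes than the other named ribosomal genes. EF1α-like was nearly the same in naïve PPO-high (6883 CPM) and cathepsin-high cells (6436 CPM) and reached 9043 CPM in other cells, a fold of 1.40. As a part of the group without the exchanger regulatory protein, however, EF1α-like differed by 1.81 and 1.82-fold, beside 1.81 and 1.75-fold for P0. Hsc70-4 differed by 1.43 and 1.40-fold, and its lowest class was SPARC-high in both libraries.

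**Figure D4:**
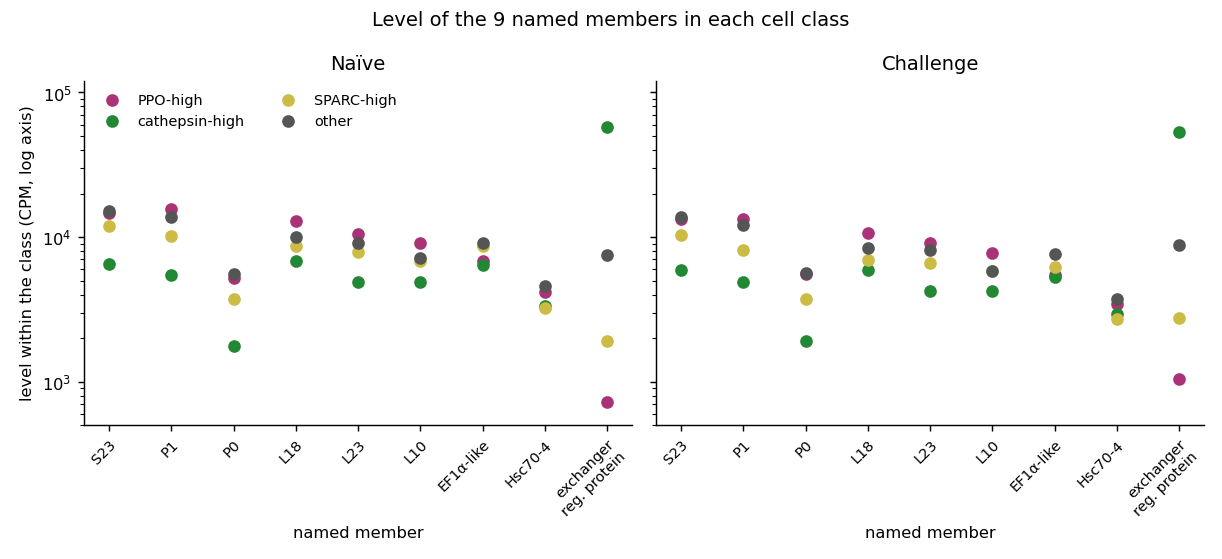
Level in CPM (log axis) of the 9 named ubiquitous transcripts in the 4 classes, naïve on the left and challenge on the right, 1 point per class. The exchanger regulatory protein spans from 723 to 57333 CPM in the naïve library, and cathepsin-high cells have the lowest point for the 6 ribosomal genes and EF1α-like.

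Among the genes without a name, SPEXI_LOCUS1618 was low in PPO-high cells, with 1773 CPM against 4646 CPM in other and 4706 CPM in SPARC-high naïve cells. SPEXI_LOCUS422 was low in cathepsin-high cells, with 2099 CPM against 6734 CPM in other naïve cells. Both patterns were also present in the challenged library, at 1966 against 4418 CPM and at 1966 against 6346 CPM.

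Detection followed these levels. At 1000 UMIs per cell, 65 of the 70 were found in at least 90% of naïve PPO-high cells, 66 in SPARC-high, 65 in other and 32 in cathepsin-high cells. In the challenged library the numbers were 65, 66, 66 and 20. P0 was found in 63.6% of naïve cathepsin-high cells at this depth and in 98.2% of PPO-high cells, and S23 in 97.1% and 99.9%. At full depth 62 and 63 of the 70 were still found in at least 90% of cathepsin-high cells. The variation between cells of 1 class was close to sampling in SPARC-high cells, where the median Fano factor was 1.29 and 1.22, and was larger in other cells, with 1.95 and 1.73. Hsc70-4 was among the more variable genes of naïve other cells, with a factor of 4.28. In naïve SPARC-high cells its factor was 1.52, which was also above the median of 1.29 there.

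Challenged hemocytes had a lower level of nearly all ubiquitous transcripts as a part of all UMIs. The ratio of challenged over naïve was below 1, with its interval, for 64 of the 70, against 41.6% of the 1349 genes. It was above 1 for 6, against a background of 51.7%. With the TMM factor of edgeR, which scales by a trimmed and weighted mean over genes, 53 were lower and 17 higher. The median of the 70 was then -0.071 on the log2 scale and that of the 1349 genes 0.14. Without this factor the median ratio was 0.889, or -0.17 on the log2 scale, while the median of the 1349 genes was 0.04. The differences were small. A ratio under 0.8, or -0.32 on the log2 scale, was found for 2 genes, SPEXI_LOCUS4549 with 0.784 (interval 0.780 to 0.789) and SPEXI_LOCUS5986 with 0.798 (interval 0.794 to 0.801), against 11.6% of the background. Both were above 0.8 with the TMM factor, with each cell given the same weight and with the markers, cecropins and PGRP-LB left out of the totals. No gene was above 0.32 on the log2 scale, the same distance in the other direction (background 20.6%), although the exchanger regulatory protein was with the TMM factor. None was past 1.5-fold in either direction (background 4.15% lower, 9.12% higher). How these differences compare with those between 2 libraries of the same condition could not be measured.

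Of the 9 named genes 7 were lower in the challenged library. EF1α-like went from 8587 to 7074 CPM (ratio 0.824, interval 0.821 to 0.827), L10 from 7083 to 5868 CPM (0.829), Hsc70-4 from 4260 to 3563 CPM (0.836) and L18 from 9852 to 8318 CPM (0.844). P1 and L23 had nearly the same ratio, 0.881 and 0.883, and S23 the mildest one of the 7, with 0.915. P0 was the translation gene on the other side, with a ratio of 1.04 (interval 1.035 to 1.043), but this direction turned with each cell given the same weight (-0.032 on the log2 scale). The exchanger regulatory protein had the highest ratio of the 70, 1.17 (interval 1.1669 to 1.1735) or 0.23 on the log2 scale, which was 0.10 with the naïve class composition given to both libraries. SPEXI_LOCUS4982 and SPEXI_LOCUS4983 followed with 1.14 and 1.13. As a part of the group itself, 60 of the 70 lay between 0.9 and 1.1, so most had ratios close to that of the group. No background share is given for this count.

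**Figure D5:**
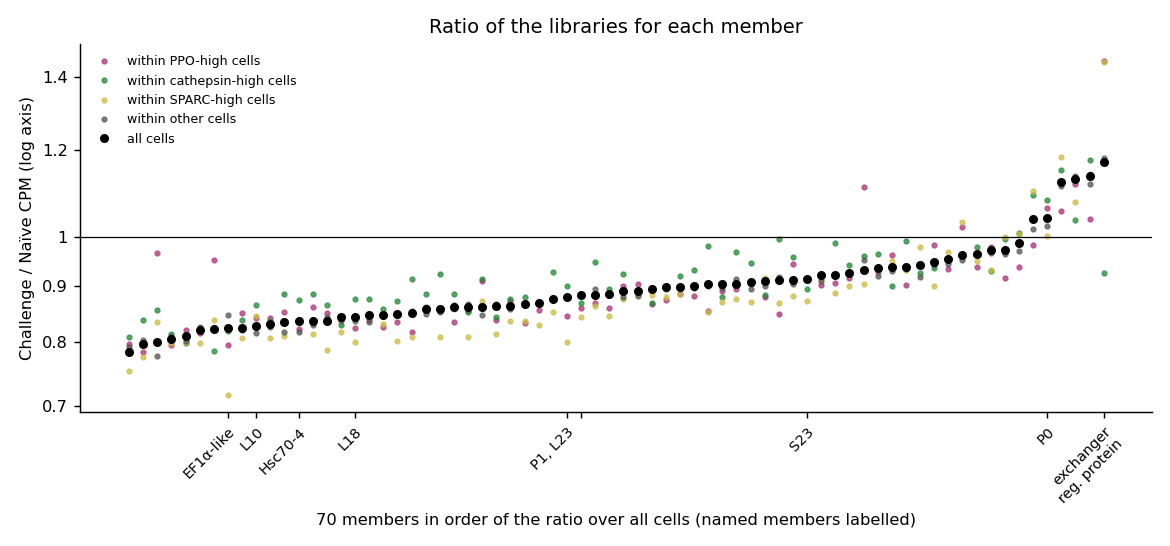
Ratio of challenged over naïve CPM (log axis) for each of the 70 ubiquitous transcripts in order of the ratio over all cells (black), with the ratio within each class (coloured). The black points run from 0.784 to 1.17 and 64 of them lie below 1.

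The lower level was found inside the classes as well. Within PPO-high cells 63 of the 70 were lower (background 29.8%), within cathepsin-high cells 64 (background 44.5%), within SPARC-high cells 62 (background 48.0%) and within other cells 64 (background 45.3%). The median ratios were 0.876, 0.898, 0.867 and 0.885, while the 1349 genes had medians of 1.16, 1.04, 1.02 and 1.03 in these classes. In all 4 classes 61 of the 70 were lower (background 20.2%), among them 6 of the 7 translation genes, and 4 were higher in all 4 (background 36.8%). At a class limit of 5% of UMIs, 39 were lower in all 4, and no background share is given for that limit. SPARC took over 4% of the UMIs in only 179 naïve and 23 challenged cells. The SPARC-high class is thus very small at that limit, and the 39 says little about direction within this class. EF1α-like was lowest in SPARC-high cells, with a ratio of 0.715 (interval 0.707 to 0.723), and was 0.847 in other cells. P0 had ratios of 1.06 in PPO-high, 1.08 in cathepsin-high, 1.00 in SPARC-high and 1.02 in other cells, and the interval in SPARC-high cells (0.986 to 1.02) included 1. The exchanger regulatory protein went in opposite directions, with 0.926 (interval 0.922 to 0.930) in cathepsin-high cells, where it is most abundant, and 1.45 (interval 1.401 to 1.498) in PPO-high cells. Procathepsin H was at 450 CPM in naïve and 816 CPM in challenged PPO-high cells, and the part of RNA from other cells in these values was not tested.

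The challenged share was also lower at equal class composition and, in most groups, at matched depth. With the naïve class composition given to both libraries the ratio of the group's share was 0.887, and it was 0.921 with each cell given the same weight. Without the markers, cecropins and PGRP-LB in the totals it was 0.922. Of the 17 groups of cells with the same class and the same depth bin and at least 50 cells in each library, the challenged share was lower in 15 and higher in 2. The exceptions were other cells with 500 to below 1000 UMIs (23.1% against 21.0%) and with 1000 to below 2000 UMIs (27.8% against 24.1%). Cecropin B, which took 2745 CPM of the naïve and 19530 CPM of the challenged UMIs, is part of the total in these shares, except where cecropins were left out.

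A small set of cells gave little to the ubiquitous transcripts. Under 10% of the UMIs went to the group in 351 naïve cells (2.37%) and 280 challenged cells (2.24%). Of these, 309 and 243 were other cells. Their median depths were 1036 and 881 UMIs, with medians of 679 and 544 genes. By comparison, naïve other cells had medians of 480 genes at 500 to below 1000 UMIs and 746 genes at 1000 to below 2000 UMIs. Challenged other cells had medians of 444 and 676 genes in these bins. The cells with a low share were thus shallow, with gene numbers between those medians.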

How the data were processed

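Hemolymph of naïve and challenged larvae gave 1 library each of the 10x Chromium 3′ v2 kit. The authors processed the reads with Cell Ranger. What they deposited are raw counts of UMIs for each gene in each called cell, with no normalization. The deposited headers name cellranger 7.2.0, whereas the methods name another version. Whether the reads were assigned to a transcriptome or a genome is not given for certain in the sources used here, so near-identical gene copies may share counts.

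Cells with at least 200 genes were kept, following the methods. This took 26 cells from the 14866 of the naïve library and 6 from the 12530 of the challenged one, and none of the rest had over 6000 genes. The mitochondrial filter was not applied. The Scrublet routine of scanpy 1.11.5 called 432 (2.91%) and 194 (1.55%) doublets, against 11.9% and 10.0% expected from cell numbers. They were kept in the main results, and undetected doublets can remain. The files held 81253288 and 94500088 UMIs.

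Levels are UMIs summed over cells and scaled to a total of 1000000 (CPM). A cell joined the class whose markers took at least 2% and at least 5 of its UMIs, and the largest share decided if several classes passed. For equal depth, each cell was thinned to 1000 UMIs without replacement. The background is the 1349 genes that reached 100 CPM in either library. No test, p-value or standard error was computed, since cells of 1 library are not replicates. The ratio and its interval were tested on simulated data. Members, lists and classes were chosen with earlier results of these data known. Names come from the study's tables of highly expressed genes, which were chosen on these libraries. The named genes are all members with a name and the genes at the extremes of each comparison, with at most 2 unnamed genes per direction. Alternatives covered the minimum of genes, the limit of detection, doublets, depth, the class limit, the totals, cell weights, TMM scaling of edgeR 4.0.16 and the class composition, and 1 alternative was added after seeing the data. The work was run in R 4.3.3 and in Python 3.11.15 with scipy 1.17.1, numpy 2.4.6, matplotlib 3.10.9 and pandas 2.3.3.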

Additional observations from a re-analysis of the deposited data

How the results depend on the processing

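With 1 library per condition no value has a replicate error, and conditions cannot be told apart from library, pooled larvae or depth. Intervals cover counting error only and are narrow, so almost every setting moves a value beyond them, and the cause was not tested. No paired analysis was possible because each condition has 1 library and no test was run. The number of ubiquitous genes was 91 with at least 500 genes per cell, 90 at a limit of 85%, 30 at a limit of 95%, 54 when chosen after thinning, 68 without called doublets and 95 among cells with at least 1000 UMIs. All 70 were among the 91, the 90 and the 95.

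The part of all UMIs held by each of these groups (naïve and challenged) was 45.3 and 40.7% with at least 500 genes, 45.2 and 40.6% at 85%, 21.2 and 18.4% at 95%, 32.9 and 29.0% after thinning, 38.9 and 34.7% without doublets and 45.8 and 41.1% with at least 1000 UMIs. For the 70 genes it was 32.8 and 30.2% with each cell given the same weight and 41.0 and 37.9% without markers, cecropins and PGRP-LB. Without the exchanger regulatory protein in the group, an alternative chosen after seeing the data, it was 38.5 and 34.1%, with 21.8 and 18.7 points between the highest and lowest class. The difference between the highest and lowest class was 16.1 and 13.5 percentage points. It was 17.2 and 14.8 with at least 500 genes, 17.8 and 15.1 at 85%, 11.6 and 9.71 at 95%, 19.0 and 16.1 after thinning, 16.0 and 13.3 without doublets and 17.7 and 14.7 with at least 1000 UMIs. It was 15.0 and 12.2 at a class limit of 1%, 17.7 and 14.9 at 5%, 15.4 and 13.3 with equal weights and 13.8 and 12.3 without markers. The difference between the deepest and shallowest bin was 23.1 and 19.0 points. It was 32.5 and 28.0 with at least 500 genes, 25.7 and 20.8 at 85%, 12.3 and 9.81 at 95%, 20.1 and 16.1 after thinning, 22.9 and 18.8 without doublets, 22.9 and 18.6 with at least 1000 UMIs, 23.3 and 18.5 with equal weights and 22.8 and 19.2 without markers.

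The count of genes 2-fold between classes in both libraries was 21 of the 70 at a class limit of 1% and 12 of the 70 without markers, against 36 of the 70. At a detection limit of 95%, where the group has 30 genes, it was 15. No background shares are given for these alternatives. Median detection after thinning was 93.9 and 92.0% with at least 500 genes, 93.3 and 91.5% at 85%, 97.1 and 96.0% at 95%, 95.6 and 94.1% for genes chosen after thinning and 92.7 and 91.4% with at least 1000 UMIs. The median Fano factor was 1.85 and 1.77, 1.93 and 1.83, 2.28 and 2.08, 2.12 and 1.95, and 1.89 and 1.81 in the same order.

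The median log2 ratio of challenged over naïve stayed below 0 in all settings run. It was -0.071 with the TMM factor, -0.13 without markers, cecropins and PGRP-LB, -0.14 with equal weights, -0.15 at 85%, -0.16 with at least 500 genes and with at least 1000 UMIs, -0.18 without doublets and with the naïve class composition, -0.19 after thinning and -0.22 at 95%. Of the 70 genes 53 were lower and 17 higher with the TMM factor, and 61 and 9 with equal weights and also without markers. The median log2 ratio of the 1349 genes was 0.14 with the TMM factor, -0.015 with equal weights and 0.088 without markers. The number below -0.32 on the log2 scale was 2 of the 70, and it was 0 with the TMM factor, with equal weights and without markers. It was 0 of 30 genes at 95%, 1 of 54 after thinning and 4 of 95 with at least 1000 UMIs. The number above 0.32 was 0 of the 70, and it was 1 with the TMM factor and 1 of 91 with at least 500 genes per cell. The number lower in all 4 classes was 39 of the 70 at a class limit of 5%, against 61 of the 70. At that limit the SPARC-high class is very small, since only 23 challenged cells had over 4% SPARC. At a detection limit of 95%, where the group has 30 genes, it was 29. P0 turned to -0.032 on the log2 scale with equal weights, and the other 12 named or extreme genes kept their direction.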
